A study of Ovis aries with 9 samples.

Results

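The genes of DNA replication and S phase were followed in cultured ovine granulosa cells at 3 glucose concentrations. The list held 41 gene symbols, from the licensing factors that mark replication origins to the enzymes that make deoxynucleotides. A gene was taken where its symbol stood in the gene table, which gave 37 of the 41 among 39157 genes in all. MCM2, POLA2, POLD3 and PRIM1 were not analysed here. The rule reads the symbol alone, and the list was drawn up with earlier results of these data known.

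Granulosa cells (GCs) are the somatic cells that line the ovarian follicle and support the oocyte. They were cultured from follicular fluid pooled over many ovaries of thin-tailed Han ewes at the start of the second year of life. All cultures first spent a period without glucose and serum. They then received no glucose (CON, 0 mM), 8.4 mM glucose (LOW) or 33.6 mM glucose (HIGH) for 24 h, and RNA was sequenced from 3 cultures of each group. Because the cells came from a pool, the p-values below measure the spread between cultures and not between animals.

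DNA replication starts when the origin recognition complex, CDC6 and CDT1 load the MCM helicase onto chromatin in G1 phase. Cyclin E with its kinase then promotes S phase, the helicase is activated by CDC45 and the GINS complex, and the polymerases copy the strands while the PCNA clamp holds them on the template. Many of these genes are E2F targets whose mRNA is high in proliferating cells, and granulosa cells of growing follicles divide before they differentiate.

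Levels are given in FPKM, fragments per kilobase of transcript relative to the depth of the library, after each library was scaled to a common median. In the deposited counts, which are estimates, an FPKM of 1 stood for 48.0 to 71.3 counts per kilobase of genomic span over the 9 libraries. Mean levels over the libraries ran from 0.519 FPKM for GINS2 to 42.8 FPKM for PCNA, with a median of 4.13, and 34 of the 37 genes had a mean of 1 FPKM or more. The other 3 were GINS2, ORC1 at 0.801 FPKM and FEN1 at 0.909 FPKM, the lowest levels of the 37. The estimated counts also depend on the span, which was 36774 bases for GINS2, 30001 for ORC1 and 1119 for FEN1. A low FPKM alone therefore does not give the number of fragments. All 37 passed the filter on low values, which asked for 0.1 FPKM in 3 libraries.

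The granulosa label was checked against marker genes. CYP11A1, the enzyme that starts steroid synthesis, was at 141 to 202 FPKM and the inhibin subunit INHA at 8.53 to 20.2 FPKM. FSHR, the receptor for follicle-stimulating hormone, was at 0.228 to 0.577 FPKM. CYP19A1, FOXL2, AMH and INHBB were not analysed here. Stromal markers were high, with LUM at 1756 to 2288 FPKM, and 10 of 10 stromal and smooth muscle markers were over 1 FPKM in all libraries. Of 5 endothelial markers CDH5 was at 0 in all 9 libraries and the other 4 were under 1 FPKM. The data are from bulk RNA, so fewer cells of a type and less RNA per cell cannot be told apart. TXNIP, which cells induce when glucose enters them, had a mean of 87.4 FPKM in CON, 224 FPKM in LOW and 200.2 FPKM in HIGH, and its groups with glucose did not overlap CON (adjusted limma p of 0.112 and 0.159).

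The first question was whether any replication gene differed between glucose groups. None of the 37 met the call (limma, adjusted p under 0.05 and a difference of over 1 log2 unit) in any of the 3 comparisons. The background was as low, since 2 of 24365 tested genes, 0.00821%, were called in each. At an unadjusted limma p under 0.05, 1 of the 37 genes passed for LOW versus CON, where 1.83% of all genes passed. For HIGH versus CON 1 gene passed beside 6.77% of all genes, and for HIGH versus LOW 1 gene passed beside 7.67%. The test over the 3 groups together (moderated F-test) called 0 of the 37 and 3 genes in all, 0.0123%, and 1 replication gene had an unadjusted p under 0.05, beside 5.44% of all genes. edgeR and DESeq2 on the estimated counts called 0 of the 37. For single-transcript genes these counts follow from the same FPKM values and the genomic span, so they are not separate evidence. By edgeR 0, 1 and 1 of the 37 had an unadjusted p under 0.05 in LOW versus CON, HIGH versus CON and HIGH versus LOW, beside 1.83%, 5.51% and 6.74% of all genes. By DESeq2 it was 2, 5 and 4 of them, beside 4.12%, 11.4% and 12.8%.

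The differences between LOW and CON were smaller than the spread between cultures, and those with HIGH were about as large as that spread. The median absolute log2 difference over the 37 genes was 0.09 for LOW versus CON, 0.23 for HIGH versus CON and 0.21 for HIGH versus LOW. The median standard deviation of a replication gene within groups was 0.23 on the log2 scale, and the same median over 9225 named genes with a mean of 1 FPKM or more was 0.23. The 95% intervals of the log2 differences lay wholly within 1 log2 unit of no difference for 36 of 37 genes in LOW versus CON, for 35 in HIGH versus CON and for 36 in HIGH versus LOW. The exceptions were GINS2, whose interval reached 1.34 in LOW versus CON and 1.24 in HIGH versus CON, and MCM5, whose interval reached -1.04 in HIGH versus CON and -1.06 in HIGH versus LOW.

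**Figure D1:**
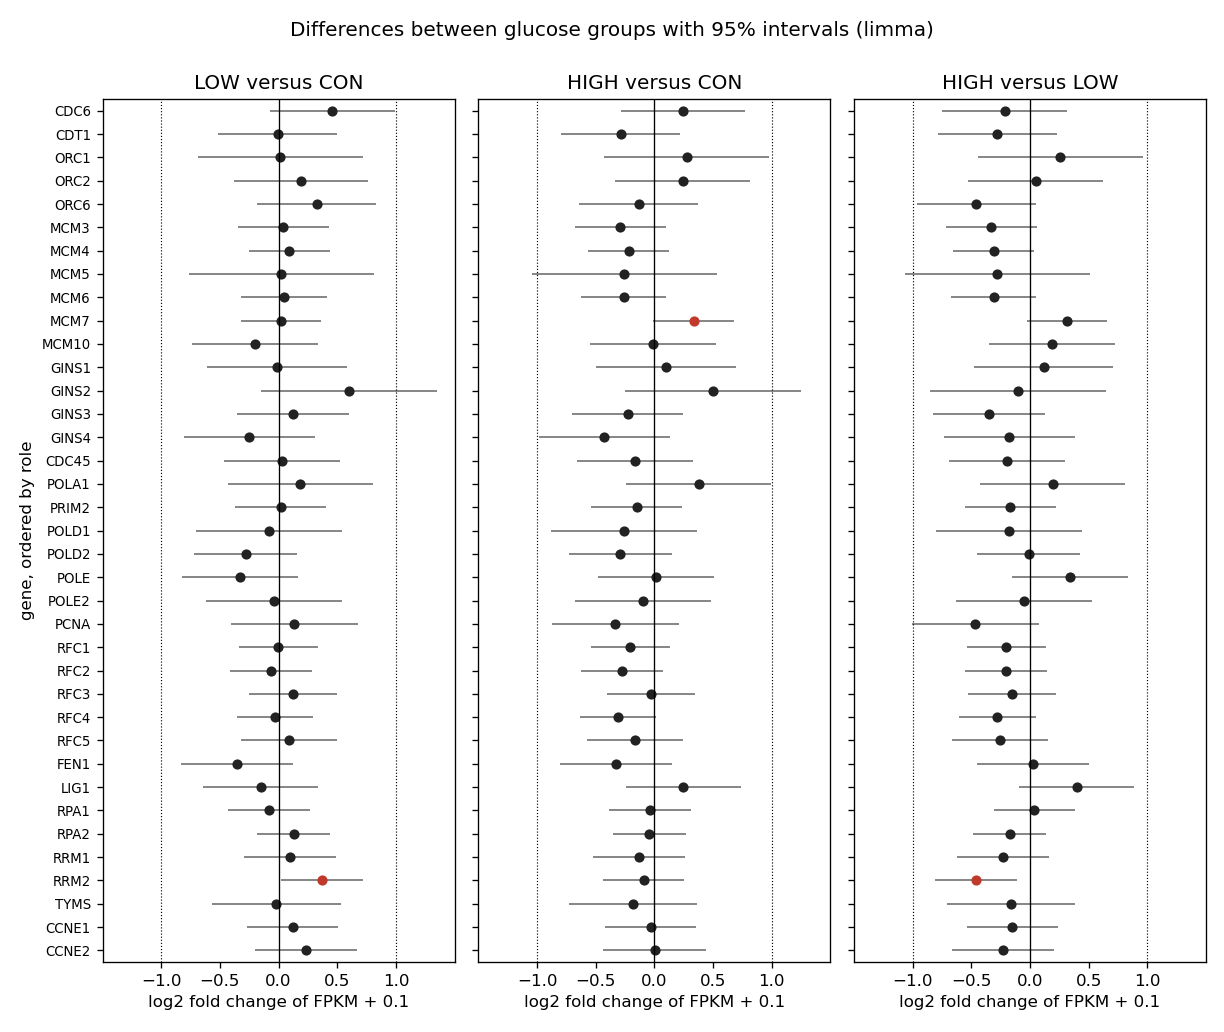
Log2 fold change of FPKM + 0.1 (x axis) of each of the 37 replication genes (y axis, ordered by role) in the 3 comparisons, with 95% intervals from limma. Dotted lines mark 1 log2 unit. Red points are the genes with an unadjusted p under 0.05, which were RRM2 in LOW versus CON, MCM7 in HIGH versus CON and RRM2 in HIGH versus LOW, and 36, 35 and 36 intervals stay within the dotted lines.

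The direction was uneven in the comparisons with HIGH. Between LOW and CON, 22 genes were higher and 15 lower in LOW, with a median log2 difference of 0.02 beside 0.01 over all tested genes. The median was -0.08 without scaling of the libraries, where it was -0.09 over all genes. Between HIGH and CON, 27 of 37 genes were lower in HIGH, beside 43.7% of all genes and 51.7% of 11361 genes with a symbol. The median was -0.13, beside 0.07 over all genes and -0.01 over those with a symbol. Between HIGH and LOW, 27 were lower in HIGH, beside 44.5% and 52.7%, and the median was -0.18, beside 0.06 and -0.02. The comparisons share libraries, so the 2 counts of 27 are not separate evidence. Without the library CON 3 and the library HIGH 1, 20 of 37 genes were lower in HIGH than in CON and the median was -0.003, and 26 were lower in HIGH than in LOW with a median of -0.10. Single libraries moved the medians both ways. For HIGH versus CON the median was -0.25 without HIGH 3, -0.24 without CON 1, -0.07 without CON 3 and -0.03 without HIGH 1, and for HIGH versus LOW it was -0.29 without HIGH 3 and -0.10 without HIGH 1. For LOW versus CON it was 0.15 without CON 3, 0.08 without LOW 1 and -0.002 without CON 1. With upper quartile scaling 22 genes in place of 27 were lower in HIGH than in CON, and without scaling 25 in place of 15 were lower in LOW than in CON.

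Few replication genes separated a glucose group completely from CON, and more of them separated HIGH from LOW. In LOW versus CON, 1 gene lay wholly above and 2 wholly below, beside 3% and 3.06% of all genes. In HIGH versus CON the counts were 1 and 2, beside 5.2% and 4.19%. In HIGH versus LOW, RRM2, RFC3, RFC4, ORC6, MCM3, MCM4 and MCM6 lay wholly lower in HIGH. These were 7 of 37, beside 7.77% of all genes, and 1, MCM7, lay wholly higher, beside 11.2%. The shares among genes with a symbol are not given here.

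RRM2, the small subunit of ribonucleotide reductase, the enzyme that makes deoxynucleotides from ribonucleotides, had the lowest p of the 37 genes in 2 of the comparisons. It lies on chromosome 3 from 19185138 to 19191043 in the coordinates of the gene table. Its levels were 11.6, 11.4 and 10.4 FPKM in CON, 14.0, 14.4 and 14.8 FPKM in LOW and 9.06, 9.54 and 13.1 FPKM in HIGH. All LOW cultures lay above all CON and all HIGH cultures, and HIGH overlapped CON. The log2 difference was 0.37 (SE 0.15) for LOW versus CON, a 1.29-fold higher level, with an unadjusted limma p of 0.0349 and an adjusted p of 1.00. For HIGH versus LOW it was -0.46 (SE 0.15), with an unadjusted limma p of 0.0128 and an adjusted p of 0.60. HIGH and CON differed by -0.09 (SE 0.15). RRM2 was also the 1 gene past an unadjusted p of 0.05 in the F-test, with an unadjusted p of 0.0291 and an adjusted p of 0.837.

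The other 2 genes of deoxynucleotide supply did not separate LOW from the other groups. RRM1, the large subunit of the same enzyme, was at 31.6, 34.2 and 41.9 FPKM in CON, 37.4, 38.2 and 38.6 FPKM in LOW and 27.1, 30.6 and 41.5 FPKM in HIGH, and its 3 groups overlapped. TYMS, which makes thymidylate, was at 27.0, 31.2 and 42.9 FPKM in CON, 29.5, 34.6 and 34.1 FPKM in LOW and 21.9, 27.5 and 41.1 FPKM in HIGH. In both genes the lowest library was HIGH 1 and the highest CON 3, with HIGH 3 close behind. RRM1 differed in the same directions as RRM2 but by less. Its log2 differences were 0.09 for LOW versus CON, -0.13 for HIGH versus CON and -0.23 for HIGH versus LOW, each with SE 0.17. The log2 differences of TYMS were -0.02 (SE 0.24) for LOW versus CON, -0.18 (SE 0.24) for HIGH versus CON and -0.16 (SE 0.24) for HIGH versus LOW, with adjusted limma p of 0.753 or more. The direction of TYMS turned under some alternatives. Without HIGH 1 it differed by 0.02 for HIGH versus CON and 0.04 for HIGH versus LOW, and with the share of small RNA in each library as a covariate by 0.13 and 0.34, the last with an unadjusted limma p of 0.0471.

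**Figure D2:**
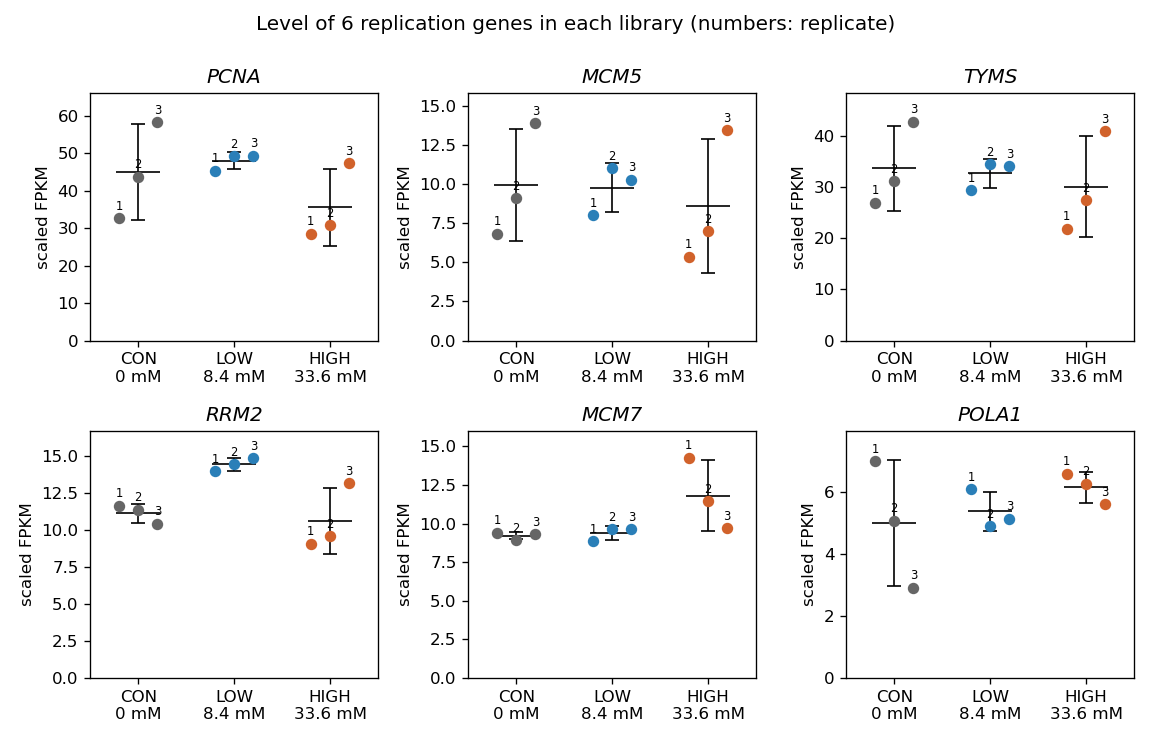
Level in scaled FPKM (y axis, from 0) of 6 replication genes in each of the 9 libraries, by glucose group (x axis). Points are libraries with the replicate number, and bars show the mean and SD of 3 libraries. RRM2 is higher in all 3 LOW libraries than in any other, MCM7 is highest in HIGH 1 at 14.3 FPKM, PCNA, MCM5 and TYMS are highest in CON 3 and lowest in HIGH 1, and POLA1 is lowest in CON 3 at 2.92 FPKM.

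The MCM helicase is a ring of 6 subunits, of which 5 were measured. MCM6 was the most abundant with a mean of 28.0 FPKM, followed by MCM4 at 12.2, MCM7 at 10.1, MCM5 at 9.43 and MCM3 at 5.91 FPKM. Between LOW and CON all 5 were slightly higher in LOW, by 0.02 to 0.09 on the log2 scale, within the SE of each. Between HIGH and LOW, MCM3, MCM4, MCM5 and MCM6 were lower in HIGH by log2 differences of -0.33, -0.31, -0.28 and -0.31. Their unadjusted limma p-values were 0.0795, 0.0675, 0.441 and 0.0805, with adjusted p of 0.632 or more.

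MCM7 went the other way. Its levels were 9.41, 8.93 and 9.33 FPKM in CON, 8.85, 9.62 and 9.64 FPKM in LOW and 14.3, 11.5 and 9.68 FPKM in HIGH. HIGH lay above CON and LOW in all 3 libraries, HIGH 3 by little and HIGH 1 by far. The log2 difference for HIGH versus CON was 0.33 (SE 0.15), with an unadjusted limma p of 0.0496 and an adjusted p of 0.651, and without HIGH 1 it was 0.19. The MCM7 gene, on chromosome 24 from 36266756 to 36273815, holds 3 microRNA genes listed in the table as oar-mir-106b, MIR93 and oar-mir-25. The use of strand in counting is not given in the sources used here, so reads from genes that overlap cannot be told apart. This holds for 14 of the 37 genes.

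PCNA, the sliding clamp that ties the polymerases to DNA, was the most abundant of the genes. Its levels were 32.7, 43.7 and 58.3 FPKM in CON, 45.3, 49.1 and 49.3 FPKM in LOW and 28.5, 30.8 and 47.4 FPKM in HIGH. HIGH 1 and HIGH 2 lay below all other libraries, while HIGH 3 lay among the LOW libraries, and CON spread from near the lowest value to the highest of all. The log2 difference was 0.13 (SE 0.24) for LOW versus CON, -0.33 (SE 0.24) for HIGH versus CON and -0.47 (SE 0.24) for HIGH versus LOW, the last with an unadjusted limma p of 0.0791 and an adjusted p of 0.632. With 1 library left out PCNA ran from -0.56 (without HIGH 3) to -0.13 (without CON 3) for HIGH versus CON and from -0.69 (without HIGH 3) to -0.33 (without HIGH 1) for HIGH versus LOW. With the small RNA covariate the differences of PCNA were -0.05 and 0.0004, and without both CON 3 and HIGH 1 they were 0.02 and -0.33. For HIGH versus LOW, 5 of 22 alternatives gave PCNA an unadjusted p under 0.05. The lowest was a limma p of 0.0123 without HIGH 3, and the highest a limma p of 0.998 with the small RNA covariate. The 5 subunits of the clamp loader RFC, which opens PCNA around DNA, ran from 1.91 FPKM for RFC3 to 12.8 FPKM for RFC5. With PCNA, all 6 genes of this role were lower in HIGH than in CON and lower in HIGH than in LOW, with median log2 differences of -0.24 and -0.23.

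Within the clamp loader, RFC4 had the clearest order. It was at 6.89, 6.33 and 7.66 FPKM in CON, 6.49, 6.88 and 7.01 FPKM in LOW and 4.77, 5.95 and 6.10 FPKM in HIGH. No HIGH library reached the lowest CON or LOW library. Its log2 difference was -0.31 (SE 0.14) for HIGH versus CON, with an unadjusted limma p of 0.0547 and an adjusted p of 0.651. RFC2 differed by -0.27 (SE 0.15), with an unadjusted limma p of 0.105, and its groups overlapped.

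The genes of origin licensing were split. CDC6, which loads the helicase with the origin complex, was at 2.29, 1.63 and 2.79 FPKM in CON, 3.08, 3.68 and 2.48 FPKM in LOW and 2.27, 2.61 and 2.99 FPKM in HIGH. The groups overlapped, and the log2 difference for LOW versus CON was 0.46 (SE 0.23), with an unadjusted limma p of 0.0788 and an adjusted p of 1.00. ORC6, a subunit of the origin recognition complex, was at 5.22, 5.80 and 8.44 FPKM in CON, 6.91, 10.0 and 7.34 FPKM in LOW and 4.87, 5.83 and 6.81 FPKM in HIGH. Its log2 difference was -0.46 (SE 0.22) for HIGH versus LOW, with an unadjusted limma p of 0.0682. The other subunits measured, ORC1 and ORC2, and CDT1 had log2 differences between -0.29 and 0.28 in the 3 comparisons.

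Among the genes that activate the helicase, GINS2 had the largest differences from CON and the lowest level. It was at 0.375, 0.529 and 0.233 FPKM in CON, 0.576, 0.757 and 0.495 FPKM in LOW and 0.522, 0.771 and 0.418 FPKM in HIGH. The groups overlapped, the log2 difference for LOW versus CON was 0.60 (SE 0.33) and the gene overlaps GSE1. The GINS complex holds 4 subunits, and the other 3 were at 2.17 FPKM for GINS3, 1.79 for GINS1 and 1.10 for GINS4. GINS4 was lower in HIGH than in CON by -0.43 (SE 0.24) and GINS3 lower in HIGH than in LOW by -0.35 (SE 0.21). CDC45, the third part of the active helicase, had log2 differences between -0.19 and 0.03.

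The polymerases were expressed at lower levels than the clamp. POLA1, the catalytic subunit of polymerase alpha that starts each new strand, had a mean of 5.51 FPKM and PRIM2, a primase subunit, 5.62 FPKM. POLD1 and POLD2 of polymerase delta, the lagging strand enzyme, were at 2.71 and 3.92 FPKM, and POLE and POLE2 of polymerase epsilon, the leading strand enzyme, at 1.07 and 1.36 FPKM. All 4 delta and epsilon genes were lower in LOW than in CON, by log2 differences of -0.33 to -0.04 with unadjusted limma p of 0.164 or more. FEN1, the nuclease that trims Okazaki fragments, was at 1.22, 0.975 and 1.02 FPKM in CON, 0.808, 0.805 and 0.831 FPKM in LOW and 0.899, 0.933 and 0.684 FPKM in HIGH. All its CON libraries lay above all others, with a log2 difference of -0.35 (SE 0.21) for LOW versus CON. LIG1, which joins the fragments, was higher in HIGH than in LOW by 0.40 (SE 0.21), with overlapping groups. RPA1 and RPA2, which coat single-stranded DNA, had log2 differences between -0.17 and 0.13.

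Cyclin E, the partner of the kinase that drives cells from G1 into S phase, was encoded by 2 genes. CCNE1 was at 3.63, 4.70 and 3.79 FPKM in CON, 4.61, 3.81 and 4.78 FPKM in LOW and 3.40, 4.11 and 4.35 FPKM in HIGH. CCNE2 was at 1.67, 1.70 and 2.40 FPKM in CON, 2.35, 2.15 and 2.25 FPKM in LOW and 1.74, 1.81 and 2.18 FPKM in HIGH. The groups of both genes overlapped. For LOW versus CON the log2 difference was 0.12 (SE 0.17) for CCNE1 and 0.23 (SE 0.19) for CCNE2, and for HIGH versus LOW it was -0.15 (SE 0.17) and -0.23 (SE 0.19), with adjusted limma p of 0.679 or more.

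**Figure D3:**
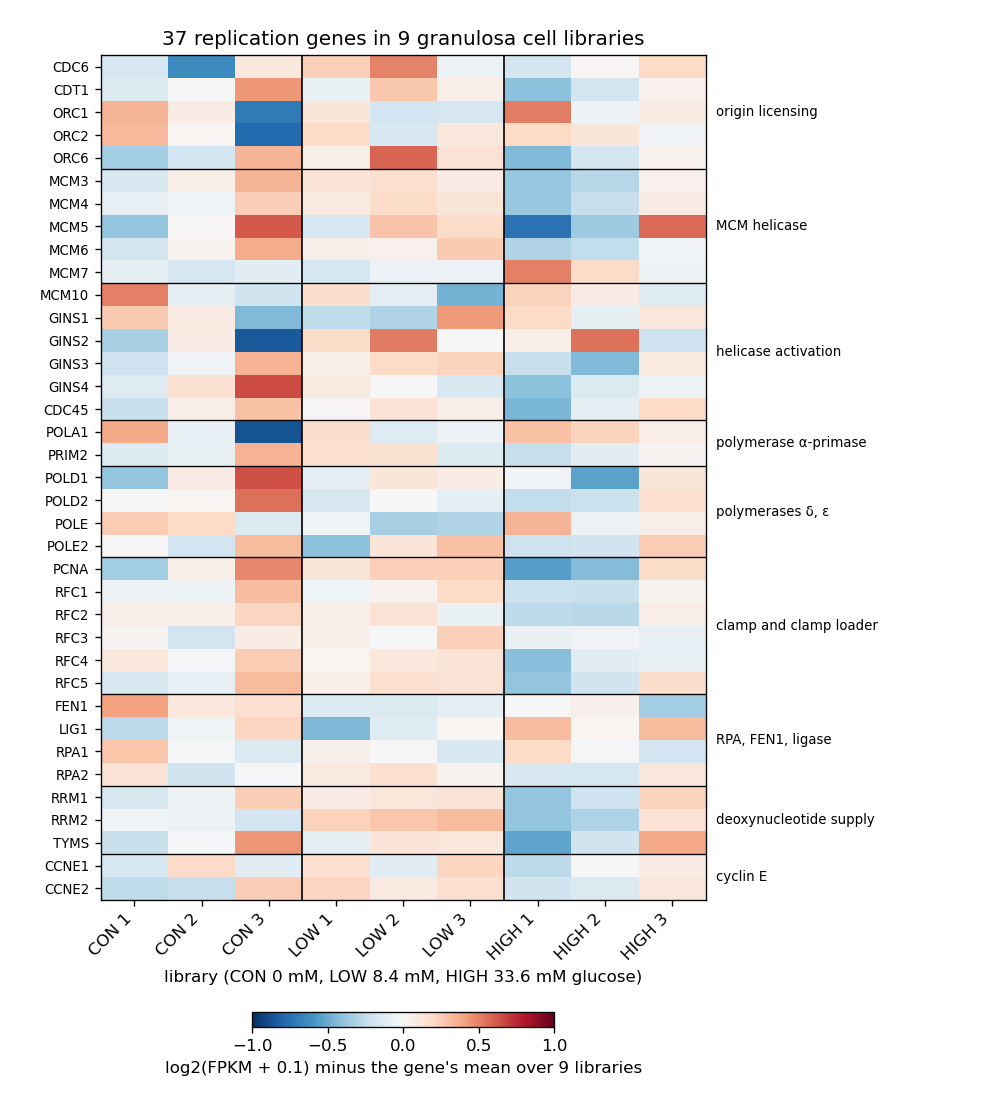
Deviation of each of the 37 replication genes (rows, by role) from its own mean over the 9 libraries (columns), on the log2(FPKM + 0.1) scale from -1 (blue) to 1 (red). CON 3 is the highest library of 20 genes and HIGH 1 the lowest of 17, while ORC1, ORC2, GINS1, GINS2 and POLA1 are lowest in CON 3.

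The libraries of 1 group differed from each other in a shared way. CON 3 was the highest of all 9 libraries for 20 of the 37 genes, beside 24.5% of all tested genes and 38.6% of the named genes with a mean of 1 FPKM or more. HIGH 1 was the lowest for 17, beside 19.1% of all genes and 29.9% of those named genes. MCM5 showed the widest range in that direction, at 6.84, 9.11 and 13.9 FPKM in CON, 8.00, 11.0 and 10.3 FPKM in LOW and 5.37, 6.98 and 13.4 FPKM in HIGH, so that CON 3 and HIGH 3 lay close to each other and CON 1 close to HIGH 2. CON 3 was higher than HIGH 1 by a log2 difference of 1.35 for MCM5, 1.03 for PCNA and 0.96 for TYMS.

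Other genes ran opposite. POLA1 was at 7.0, 5.08 and 2.92 FPKM in CON, 6.09, 4.91 and 5.14 FPKM in LOW and 6.59, 6.27 and 5.62 FPKM in HIGH, and CON alone spanned its whole range. ORC2 was at 9.90, 7.98 and 4.57 FPKM in CON, and ORC1 at 1.01, 0.828 and 0.439 FPKM. Over the deviations of the 9 libraries from their group means, 26 genes were positively correlated with PCNA and 10 negatively. The 10 were RPA1, FEN1, POLA1, ORC2, ORC1, MCM10, POLE, MCM7, GINS2 and GINS1. This split was made on the values and is a description. Of all tested genes, 43.8% were positively correlated with PCNA in the same way, and of the genes with a symbol 52.1%.

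This order of libraries was also seen outside replication. The median deviation of 28 ribosomal protein genes was -0.42 in CON 1, 0.16 in CON 2 and 0.66 in CON 3, 0.04, 0.25 and 0.22 in the LOW libraries, and -0.65, -0.30 and 0.17 in HIGH 1, 2 and 3. For PCNA and the 26 genes that moved with it, the medians were -0.16, -0.04 and 0.32 in CON and -0.30, -0.20 and 0.11 in HIGH. Those genes were picked on these values. Over all 37 genes, without that split, the medians were -0.13, -0.02 and 0.25 in CON and -0.23, -0.15 and 0.07 in HIGH. The share of FPKM in small RNA genes was 30.3% in HIGH 1, 50.7% in HIGH 2 and 52.1% in CON 1, and 64.8% to 72.1% in the other 6 libraries. CON 1, HIGH 1 and HIGH 2 were thus low in ribosomal protein mRNA and in small RNA, and 23, 26 and 28 of the 37 replication genes lay below their own mean there. The share of all genes below their own mean is not given here.

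**Figure D4:**
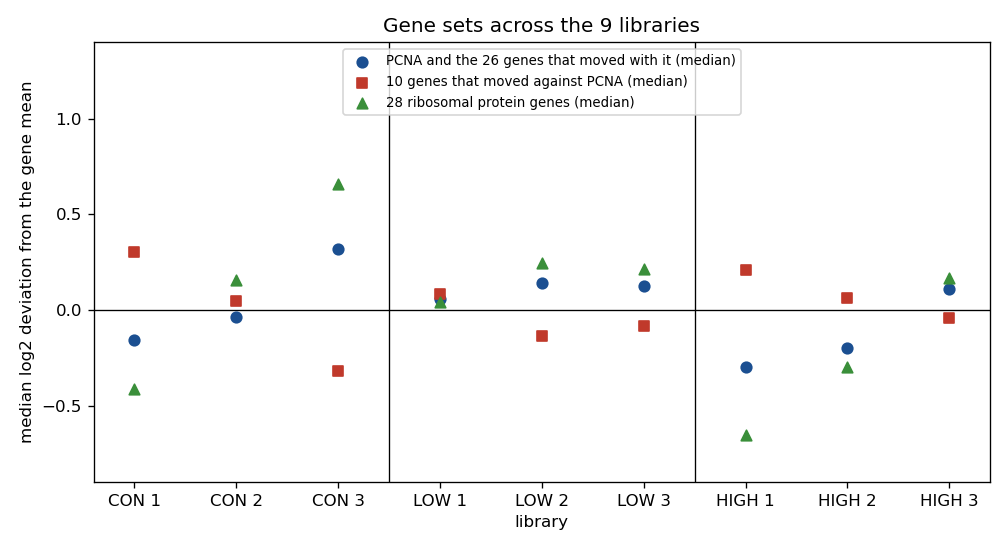
Median log2 deviation from the gene mean (y axis) in each of the 9 libraries (x axis) for PCNA with the 26 replication genes that moved with it, for the 10 that moved against it and for 28 ribosomal protein genes. The ribosomal protein median runs from -0.65 in HIGH 1 to 0.66 in CON 3, the 27 genes with PCNA run the same way from -0.30 to 0.32, and the 10 others run the opposite way.

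Gene span moved with the same order. The 10 genes against PCNA had a median genomic span of 30790 bases and the 27 others 13439 bases. Over the 37 genes, the Spearman correlation of span with the difference of CON 3 and HIGH 1 was -0.42, and over 11361 genes with a symbol it was -0.38, each across genes, which are not independent replicates. With the ribosomal protein median as a covariate, 0 of the 37 genes were called and the median log2 difference was -0.03 for HIGH versus CON and -0.08 for HIGH versus LOW. With the small RNA share as a covariate it was -0.007 and -0.03. Some cell type markers also differed in HIGH. The summed level of the 8 measured of 12 listed granulosa markers was 216 to 234 FPKM in HIGH, below the 254 to 274 in LOW and the 251 to 331 in CON, and most of it was CYP11A1. Of the 8, CYP11A1 and INHA lay wholly lower in HIGH than in both other groups, and the other 6, among them FSHR, INHBA and NR5A2, overlapped. The sum of the 10 stromal and smooth muscle markers overlapped between the groups, but 4 of them lay wholly higher in HIGH. These were COL1A1 at 38.8 to 126 FPKM in HIGH and at most 31.5 elsewhere, COL1A2 at 180 to 322 and at most 169, COL3A1 at 380 to 484 and at most 347, and PDGFRA at 40.8 to 52.4 and at most 39.9. STAR of the theca list and CD68 of the leukocyte list lay wholly lower in HIGH. Of all tested genes, 11.2% lay wholly higher and 7.77% wholly lower in HIGH than in LOW. Against CON these shares were 5.2% and 4.19%, and the share against both groups at once is not given here. The part of span, ribosomal protein level, small RNA share and markers in the lower levels of HIGH was not tested.

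LOW was the tightest group. The median log2 SD of the 37 genes was 0.12 in LOW, 0.26 in CON and 0.22 in HIGH, and LOW had the smallest SD for 25 of the 37, beside 58.0% of all tested genes and 66.0% of the named genes with a mean of 1 FPKM or more, so the tightness of LOW was shared with those genes. HIGH 1 and HIGH 2 both lay below every LOW library for 20 of the 37 genes, beside 22.2% of all tested genes and 34.9% of those named genes. In 13 of these 20, HIGH 3 did not lie below every LOW library. HIGH 3 was the highest HIGH library for 26 genes.

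The counts at an unadjusted p turned on single libraries. Without HIGH 3, 9 of 37 genes passed an unadjusted limma p of 0.05 for HIGH versus LOW in place of 1, and they were MCM3, MCM4, MCM7, PCNA, RFC5, GINS3, ORC6, RRM1 and RRM2. In the same fit 16.0% of all tested genes passed, and the lowest adjusted p of the 37 was 0.163. For HIGH versus CON 6 genes passed without HIGH 3, beside 13.7% of all genes, and 5 passed without CON 1, beside 26.1%. Without CON 3, 6 genes passed for HIGH versus LOW, beside 12.7% of all genes, and 3 for LOW versus CON, which were CDC6, ORC6 and CCNE2, beside 3.23%. Without CON 1, 3 genes passed for HIGH versus LOW, beside 10.8%. RRM2 kept an unadjusted p under 0.05 for HIGH versus LOW in 8 of 9 fits that left out a library, all but the one without HIGH 2. For LOW versus CON it did so in 4 of 9, the fits without CON 1, HIGH 1, HIGH 2 or HIGH 3. A library of the group not compared enters such a fit only through the scaling and the shared spread. Fits without such a library therefore test that comparison little. MCM7 kept such a p for HIGH versus CON in 1 of 9, the fit without HIGH 3. No fit without a library called a replication gene, including the fit without both CON 3 and HIGH 1.

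Levels of single transcripts were also given. The 37 genes had 50 transcripts, 48 passed the filter and 0 were called, beside 0.0279% of 39471 transcripts in LOW versus CON and in HIGH versus CON and 0.0355% in HIGH versus LOW. For 27 genes a single transcript carried the gene. In TYMS the transcript TYMS-202 held most of the level, at 19.6 to 36.8 FPKM, and TYMS-201 was at 2.75 to 4.95 FPKM in 7 libraries but at 0.385 FPKM in LOW 1 and 0.305 FPKM in HIGH 2. The 3 transcripts of CDC6 traded places between libraries of the same group. In CON 1 the assembled transcript TCONS_00041885 was at 1.63 FPKM and TCONS_00041890 close to 0, and in CON 3 they were at 0.0833 and 1.60 FPKM. ORC6-202 had a log2 difference of -0.68 (SE 0.28) for HIGH versus LOW, with an unadjusted limma p of 0.0377 and an adjusted p of 0.711.

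The surrounding cell cycle genes were looked at in the same way. Of 112 further genes for G1/S control, cyclin-dependent kinase inhibitors, other replication factors, nucleotide supply, chromatin assembly, G2/M and the replication checkpoint, 90 were tested and 0 were called by limma. At an unadjusted p under 0.05, 1 passed for LOW versus CON, 2 for HIGH versus CON and 4 for HIGH versus LOW, beside the 1.83%, 6.77% and 7.67% of all genes. Their median log2 differences were 0.07, -0.06 and -0.10, with 31, 52 and 59 of the 90 lower in the first group named. The lists differed in direction. Of 20 genes of G1/S control, 13 were higher in HIGH than in CON and 11 higher in HIGH than in LOW. Of 23 other replication factors, 19 were lower in HIGH than in CON and 17 lower in HIGH than in LOW.

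Genes of those lists that act beside the replication genes were CDKN2D, an inhibitor of the cyclin D kinases, and WDHD1, which links the helicase to polymerase alpha. CDKN2D was at 2.10, 1.62 and 1.78 FPKM in CON, 1.04, 1.45 and 0.882 FPKM in LOW and 3.41, 2.26 and 1.77 FPKM in HIGH, so LOW lay below both other groups. Its log2 difference was 1.05 (SE 0.27) for HIGH versus LOW, with an unadjusted limma p of 0.00338 and an adjusted p of 0.60. WDHD1 was at 3.45, 3.37 and 3.91 FPKM in LOW and 2.65, 2.59 and 2.86 FPKM in HIGH, without overlap, with a log2 difference of -0.39 (SE 0.14).

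In the lists for G1/S control, nucleotide supply, chromatin assembly and G2/M the lowest p belonged to CCND3, DTYMK, HELLS and FOXM1. Cyclin D3 (CCND3) had a log2 difference of -0.47 (SE 0.20) for HIGH versus CON, and its groups overlapped. DTYMK, the thymidylate kinase that acts after TYMS, differed by -0.57 (SE 0.24) for HIGH versus LOW, with 11.5 and 12.2 FPKM in HIGH 1 and HIGH 2 but 22.2 FPKM in HIGH 3. HELLS, a chromatin remodeller, differed by 0.33 (SE 0.17) for LOW versus CON. FOXM1, a transcription factor of G2/M genes, was at 0.352 to 0.459 FPKM in LOW and 0.609 to 0.811 FPKM in HIGH, a log2 difference of 0.72 (SE 0.26). It stayed under 1 FPKM in all 9 libraries, a low level. Of the 13 G2/M genes tested, 9 were lower in HIGH than in LOW, with a median log2 difference of -0.14. Against CON, 12 were higher in LOW, with a median of 0.12, while 7 were higher and 6 lower in HIGH, with a median of 0.03. CCND3, DTYMK, HELLS and FOXM1 had adjusted limma p of 0.621 or more in the comparisons given.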

How the data were processed

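RNA-seq of 9 cultures, 3 per glucose group, was analysed from tables deposited by the authors, who per the paper's methods aligned reads with Hisat2, assembled transcripts with Stringtie and counted with HTSeq. The submitters' notes also name TopHat2 and STAR. The genome build is not given in the sources used here. The authors deposited FPKM per gene and per transcript. The deposited gene count table holds estimated counts: for single-transcript genes its values lay within 3 percent of FPKM times genomic span times 1 factor per library, so they were rounded and used only as an alternative. By these factors an FPKM of 1 stood for 48.0 to 71.3 estimated counts per kilobase of genomic span.

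Each library was scaled to a common median of genes with FPKM of 1 or more in all libraries. Genes with FPKM of 0.1 or more in 3 libraries and a span of 300 bases or more entered limma 3.58.1 (R 4.3.3, trended variance) on log2(FPKM + 0.1), with all 9 libraries in 1 model and Benjamini-Hochberg adjustment over 24365 genes. Fold changes on this scale understate those of low genes. Rows of transcripts of Ensembl genes without a symbol were first brought to the FPKM scale. The scripts were tested on simulated data.

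Members and lists were chosen with earlier results of these data known. Folds are given in full for the 3 members with the lowest p in each comparison and for PCNA, CDC6, CCNE1, CCNE2, RRM2 and TYMS, and for the gene of each other list with the lowest p, of which 1 is not reported here. Other members shown with all libraries were chosen after their values were seen. Alternatives were other pseudocounts, filters and scalings, 2 groups only, a replicate block, each library left out, symbol-less genes left out, edgeR 4.0.16 and DESeq2 1.42.0 on the estimated counts, and 2 covariates. The transcript count table and the authors' own comparisons were not used, and no sequences were analysed here.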

Additional observations from a re-analysis of the deposited data

How the results depend on the processing

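None of the 37 genes was called in 87 recounts under the alternatives, nor any of their transcripts without the filter. The median log2 difference of the replication genes moved by more than 1 SD between replicates once, to -0.030 for HIGH versus LOW with the small RNA share as a covariate. The count of genes called over the whole table, 2 in each comparison and 3 in the F-test, did move, and the cause was not tested. For LOW versus CON it was 1 with FPKM of 1 or more, 1 without symbol-less genes, 165 by DESeq2, 4 with the small RNA covariate and 1 to 5 with a library left out. For HIGH versus CON it was 1 with only the 2 groups, 1 without symbol-less genes, 177 by DESeq2, 4 with the small RNA covariate and 2 to 8 with a library left out. For HIGH versus LOW it was 1 with FPKM of 1 or more, 6 with only the 2 groups, 0 without symbol-less genes, 339 by DESeq2 and 1 to 5 with a library left out. In the F-test it was 1 without symbol-less genes, 534 by DESeq2, 6 with the small RNA covariate and 2 to 8 with a library left out. Chosen after seeing the data, the fit without CON 3 and HIGH 1 called 6, 7, 5 and 10 genes, and the ribosomal protein covariate 4, 5 and 7 in LOW versus CON, HIGH versus CON and the F-test. Between same-numbered libraries the deviations had correlations of 0.18 to 0.42 for number 1, -0.03 to 0.01 for number 2 and 0.09 to 0.42 for number 3. The labels tie no number to a shared batch and only 5 of the 9 correlations were over 0.1, so the numbers were not taken as pairs, although 6 of 9 libraries were closest to their own number, a hint from the data and not from the design. With the replicate block, 4, 4 and 5 genes were called in LOW versus CON, HIGH versus CON and the F-test, 0 of them a replication gene, and 2, 3 and 6 replication genes passed an unadjusted p of 0.05 in the 3 comparisons, beside 2.6%, 15.1% and 16.0% of all genes. GINS2, ORC1 and FEN1 had the lowest mean levels and are read with the most caution. GINS2 was not tested with FPKM of 1 or more. Among the genes described in full, 46 of 723 recomputed differences had the other sign, none of them called and most often for CCNE1, CCNE2 and TYMS. CDC6 was higher in HIGH than in LOW by 0.14 with edgeR and 0.16 with DESeq2 on the estimated counts. Promoter motifs were not run.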

Other observations

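With the replication genes themselves left out, the 5 genes with a symbol and a mean of 1 FPKM or more whose levels over the 9 libraries were most like the mean profile of the 37 were ACOT9, BDH2, RPUSD4, PYROXD1 and C7orf25. Their Pearson correlations with that profile, on the log2 scale over 9 libraries and among 9191 genes compared, ran from 0.970 to 0.977. Of the replication genes, which are part of that mean, MCM4 was at 0.980, RFC5 at 0.976 and RRM1 at 0.970. The 9 libraries share depth and composition differences, so this is a description. BDH2, which encodes a dehydrogenase, was at 27.9, 32.9 and 39.7 FPKM in CON, 32.8, 37.1 and 36.8 FPKM in LOW and 22.7, 25.1 and 35.9 FPKM in HIGH. CON 3 was the highest library and HIGH 1 the lowest, as for PCNA.

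Markers of stromal cells did not share 1 order of libraries. COL1A1, a chain of type I collagen, was at 31.5, 28.1 and 16.1 FPKM in CON, 27.7, 23.5 and 24.4 FPKM in LOW and 126, 72.7 and 38.8 FPKM in HIGH. CON 3 was its lowest library and HIGH 1 its highest. TAGLN, a smooth muscle marker, was lowest in HIGH 1 at 921 FPKM and highest in CON 3 at 2832 FPKM.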
